A study of Mus musculus with 14 samples.

Results

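Mouse embryo fibroblasts of strain 129/Sv, either wild-type or p53-/-, were exposed to 0.2 ug/ml doxorubicin for 6 h, and their poly(A) RNA was sequenced. The account below concerns the 5 treated RNA libraries, 3 wild-type and 2 p53-null, which were taken by their labels from the 14 samples of the series. They are set against 3 untreated wild-type and 2 untreated p53-null libraries, and the remaining 4 samples were chromatin libraries that are not analysed here. All cultures grew in DMEM with 10% FCS. The labels give neither the p53 allele nor the embryos or lines from which the cultures came, and they number the replicates without saying that these were separate cultures, so the p-values below measure the spread between these samples, which may be technical. The question is which transcripts differed between fibroblasts with and without p53 when both had received the same DNA-damaging drug.

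Doxorubicin intercalates into DNA and traps topoisomerase II on it, which leaves double-strand breaks. The breaks activate the ATM kinase, p53 is released from its ubiquitin ligase Mdm2, and the protein accumulates and binds response elements near genes of cell cycle arrest, apoptosis, repair and metabolism. In fibroblasts the response is mostly a cell cycle arrest through Cdkn1a (p21). By restraining the cyclin-dependent kinases, p21 keeps the RB family proteins in repressor complexes, and genes of DNA replication and mitosis are then transcribed less.

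The treated wild-type libraries held 11665491, 11770448 and 10602049 reads and the treated p53-null libraries 25252375 and 25970157, so the null values rest on more reads. At least 1 read was found for 13885 to 14547 genes in wild type and 16435 to 16946 in null, and still for 15011 to 15346 in null after thinning to 10602049 reads. Across the tested genes the wild-type libraries correlated with each other at 0.923 to 0.957 and the null pair at 0.976. Wild-type replicate 3 stood apart for single genes: Mki67 measured 6.26, 7.91 and 215 CPM (reads of a gene scaled to a common library size, as described with the processing) in the 3 wild-type libraries, a gene picked out for this unevenness. The libraries of each genotype also differed in sex-chromosome transcripts. The Y-linked Ddx3y stood at 13.0, 0.651 and 0.823 CPM in treated wild type and at 19.05, 0 and 0.225 in untreated wild type, high in replicate 1 of both. Xist stood at 10.27, 14.41 and 27.06 CPM in treated wild type and at 9.761, 7.725 and 18.09 in untreated wild type. In null cells Xist stood at 1.10 CPM in treated replicate 1 and at 12.5 in replicate 2, against 0.858 ± 0.281 (SD, n = 2) in untreated null, and Ddx3y at 3.98 and 0.377 against 5.92 ± 1.41 (SD, n = 2). Treated null replicate 2 therefore did not match the untreated null library of the same number. The total of called genes and the counts of several lists are given below also without it. All other counts rest on it and are given with all libraries only. The genotypes differed too: in limma, Xist was higher in untreated wild type (log2 difference 3.11, adjusted p = 0.0147). The Y-linked Eif2s3y was lower there (-2.21, adjusted p = 0.0104). Neither passed in treated cells (1.85 and -0.24, adjusted p = 0.145 and 0.793). The part of embryo sex in the genotype differences was not tested.

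In all, 1349 of 11177 tested genes (12.1%) differed between treated wild type and treated null at a Benjamini-Hochberg adjusted p under 0.05 in limma. Of these, 763 (6.83%) were higher in wild type and 586 (5.24%) lower, and these 2 shares are the background for the treated counts of each gene group. For untreated counts the background is 12.8% higher and 20.4% lower. A change of at least 2-fold was seen in 676 of the higher and 541 of the lower genes, and at least 8-fold in 87 and 54. None of the 768 called genes with an average log2 CPM of at least 3 overlapped between the treated genotypes. A lack of overlap therefore adds no support to the call of such a gene. The median difference over all tested genes was -0.03 on the log2 scale and the median standard error 0.34. The split of directions depended on the scaling: with library size alone 1766 genes were called, 31.4% of them higher in wild type instead of 56.6%, and the median of all genes moved to -0.29. Without treated null replicate 2 the count was 467. In bulk RNA, fewer cells of a type and less of an RNA per cell cannot be told apart.

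The gene that encodes p53 itself was transcribed in both genotypes. Trp53 measured 29.4, 23.9 and 43.4 CPM in treated wild type and 29.5 and 44.1 in treated null, and the groups overlapped (log2 difference -0.20, SE 0.29, adjusted p = 0.692; 0.03 without treated null replicate 2). In untreated cells it was lower in wild type, at 23.2 ± 2.73 CPM (SD, n = 3) against 71.9 ± 3.25 (SD, n = 2), with a log2 difference of -1.62 (adjusted p = 0.00536). Since the reads come from the 3' end of transcripts and the labels do not give the deleted part, this level is no check of the knockout. The libraries were told apart by Cdkn1a, the inhibitor through which p53 arrests the cycle, which reached 4443, 5096 and 4071 CPM in treated wild type and 53.9 and 44.4 in treated null. Every wild-type library lay far above both null libraries, by 6.51 on the log2 scale or 91.4-fold (SE 0.20, adjusted p = 1.99e-07). Untreated cells showed a smaller gap in the same direction, 686 ± 110 CPM (SD, n = 3) against 30.4 ± 1.55 (SD, n = 2), and the difference between the 2 gaps was itself called (2.05 on the log2 scale, adjusted p = 0.00709).

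Feedback regulators hold p53 in check once it is active. The list of 14 genes for this group also counts Trp53 itself and genes that act in favour of p53. Of the 14, 10 were expressed enough to be tested, and 4 were higher and 1 lower in treated wild type. Mdm2, the ligase that ubiquitinates p53, measured 1078, 1159 and 1907 CPM in wild type and 63.8 and 48.6 in null, a 23.8-fold difference (log2 4.57, SE 0.28, adjusted p = 6.5e-06). Replicate 3 was the highest of the wild-type libraries, and none came near the null ones. Ccng1 (cyclin G1, which recruits a phosphatase to Mdm2) measured 37.7, 54.9 and 63.8 CPM against 3.15 and 1.98 (log2 4.10, adjusted p = 2.07e-05). In untreated cells its difference was 0.80 and did not pass (adjusted p = 0.07), and the gap with doxorubicin was larger by 3.30 (adjusted p = 0.00497). Trp53inp1, a nuclear stress protein that promotes p53 phosphorylation, was higher by 3.36 and the phosphatase gene Ppm1d by 1.46, although Ppm1d lost its call when either treated null library was left out. Cdkn2a, which encodes p16Ink4a and the Mdm2 antagonist p19Arf, was the 1 lower gene, with 8.59, 5.39 and 20.8 CPM in wild type and 58.1 and 34.9 in null (log2 -2.13, SE 0.56, adjusted p = 0.0337). Its call was lost under 9 of 24 alternatives, among them the removal of treated wild-type replicate 1 or 2, untreated wild-type replicate 2, either treated null library or untreated null replicate 1. The 5 uncalled members of the list, Trp53 among them, had log2 differences between -0.68 (Trim24) and 0.45 (Rchy1).

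Known p53 target genes were drawn from 5 lists, of arrest, apoptosis, DNA repair, metabolism and secretion. Of 87 listed genes 84 were in the files and 78 were tested. In treated wild type 45 of the 78 were higher and 1 was lower, with a median log2 difference of 1.69, against 6.83% higher among all tested genes and a median of -0.03. In untreated cells 19 were higher and 12 lower, with a median of 0.19, where the background was 12.8% higher and 20.4% lower. The gap was larger with doxorubicin for 22 of the 78, where 261 of all tested genes (2.34%) had a called change of the gap and 1.89% a larger one. Without treated null replicate 2, 33 were called higher, and without both null libraries numbered 2, 26. The count of 22 depended more on single libraries: it was 4 and 9 without untreated null replicate 1 or 2, 10 and 13 without treated null replicate 1 or 2, and 0 in limma without both null libraries numbered 2 (37 at an unadjusted p under 0.05). With the replicate number as a block within each genotype it was 38, where 6.32% of all genes had a larger gap. That block pairs the null libraries numbered 2, which did not match in Xist and Ddx3y. The CPM summed over the 78 genes came to 11100, 12700 and 11600 in treated wild type and to 2090 and 2170 in treated null, and in untreated cells to 4120, 4340 and 4640 against 2780 and 3000. The untreated comparison shares no library with the treated one, but same-numbered untreated and treated libraries of a genotype deviated together from their group means, with correlations across genes of 0.581, 0.342 and 0.611 in wild type and 0.385 in null (necessarily the same for both null pairs, as each null group holds 2 libraries). The 2 comparisons are therefore not independent, while the difference between them shares libraries with both.

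Among the arrest genes, 10 of 14 tested were higher in treated wild type, with a median of 2.12. Ptprv, which encodes a receptor-type tyrosine phosphatase, had the largest difference of the 5 lists: 103, 89.5 and 74.9 CPM in wild type against 0.455 and 0.346 in null (log2 6.63, SE 0.28, adjusted p = 7.59e-07). It was low in all untreated libraries, with 2.95 ± 0.299 CPM (SD, n = 3) in wild type and 0.394 CPM on average in null, and its gap was larger with doxorubicin by 4.68 (adjusted p = 0.000847). Btg2, an antiproliferative adaptor of mRNA deadenylation, measured 90.6, 118 and 86.6 CPM against 11.6 and 7.64 (log2 3.30). Gtse1, a microtubule-associated protein that also moves p53 out of the nucleus, measured 67.6, 74.3 and 67.6 against 12.2 and 16.7 (log2 2.25). For both genes the groups were well apart. Zfp365 (3.07), Rprm (3.35), Pml (1.99) and Cgref1 (1.77) were also higher, and Pml lost its call without treated null replicate 2. Sfn (14-3-3 sigma) passed narrowly, at 1.10 and adjusted p = 0.0454, and 16 of the 23 alternatives that tested it ended its call, each removal of 1 library except untreated wild-type replicate 1 among them. The damage-inducible Gadd45a (-0.73, adjusted p = 0.382) and the kinase gene Plk2 (0.92, adjusted p = 0.0712) did not pass.

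The apoptosis genes differed in the same direction, 15 of 19 tested being higher with a median of 2.04. Bbc3, which encodes the BH3-only protein Puma, measured 24.3, 39.2 and 37.6 CPM in treated wild type and 2.84 and 2.80 in treated null (log2 3.33, SE 0.31, adjusted p = 8.63e-05). Untreated levels were 5.71 ± 1.20 CPM (SD, n = 3) in wild type and 4.27 on average in null, a difference of 0.38 that did not pass (adjusted p = 0.371). Pmaip1, which encodes Noxa, was much less abundant but equally separated, at 2.90, 3.25 and 4.53 CPM against 0.227 and 0.283 (log2 2.41). Bax, the pore-forming effector, measured 83.1, 107 and 56.9 CPM against 41.4 and 34.3. All 3 wild-type libraries lay above both null libraries, yet the difference of 1.07 missed the threshold (SE 0.34, adjusted p = 0.0671), and it passed when wild-type replicate 3 was left out. The exonuclease gene Aen measured 444, 311 and 576 CPM against 125 and 78.5 (log2 2.11), and here an untreated difference of 1.67 (adjusted p = 0.00437) was nearly as large. Phlda3, a repressor of Akt signalling, measured 818, 920 and 748 CPM against 141 and 110 (log2 2.72), and Siva1 462, 424 and 671 against 141 and 158 (log2 1.77). Both were also higher in untreated wild type, by 1.40 and 1.30. The death receptor gene Fas was scarce, at 1.77, 1.49 and 2.37 CPM against 0.0758 and 0.0629 (log2 2.04). Tnfrsf10b, the TRAIL receptor, had a similar estimate (2.02) that rested on wild-type replicate 3, with 9.43, 7.72 and 60.3 CPM against 3.15 and 4.37, and it did not pass (adjusted p = 0.0952). Without that replicate the estimate was 1.02, and without replicate 2 it passed. Trp53i11, Perp, Ei24, Eda2r, Zmat3, Lrdd, Bcl2l1 and Apaf1 made up the rest of the called genes with Trp53inp1. Among these Apaf1, the apoptosome scaffold, was the weakest call (1.49, adjusted p = 0.0496), lost under 14 of 24 alternatives and with each removal of 1 library other than untreated wild-type replicate 1 and untreated null replicate 1. Lrdd lost its call without either treated null library, and Zmat3 and Bcl2l1 without treated null replicate 2.

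**Figure D1:**
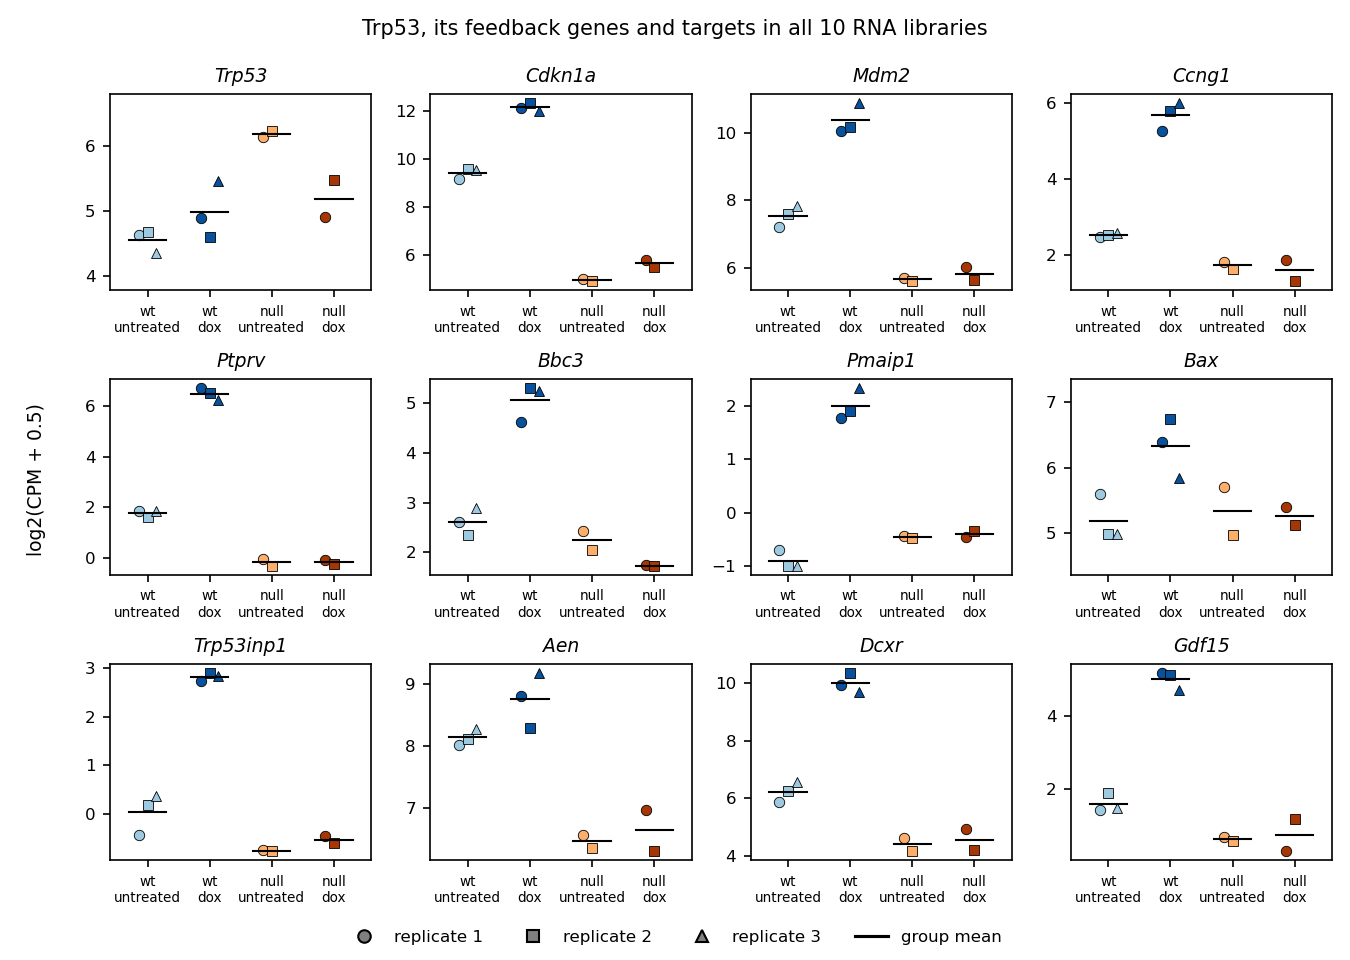
Level of 12 genes of the p53 network in each of the 10 RNA libraries, on a log2(CPM + 0.5) axis. Marker shapes give the replicate number and bars the group mean. For Cdkn1a, Mdm2, Ccng1, Ptprv, Bbc3, Pmaip1, Trp53inp1, Dcxr and Gdf15 the 3 treated wild-type libraries form the highest group, Trp53 overlaps between treated genotypes, and Bax is separated by a smaller distance.

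The repair group was mixed. Of 9 tested genes 2 were higher and 1 lower, with a median of 0.06. Ercc5, the XPG nuclease of nucleotide excision repair, measured 91.5, 41.6 and 68.1 CPM in treated wild type against 13.1 and 13.5 in null (log2 2.22), and Mgmt, which removes alkyl groups from guanine, 9.62, 27.2 and 22.2 against 3.45 and 3.05 (log2 2.31, a call lost without treated null replicate 2). Both were also called higher in untreated wild type, by 1.13 and 2.00. Neither gap was called different with doxorubicin in limma (adjusted p = 0.231 and 0.792). Ung, the uracil glycosylase, was the 1 target lower in wild type, at 2.43, 2.05 and 2.06 CPM against 6.82 and 4.34 (log2 -1.16, adjusted p = 0.039), and 13 of 24 alternatives ended that call, each removal of 1 library except untreated wild-type replicate 1 among them. Pcna, the replication clamp that p21 binds, had a negative estimate that did not pass (-1.12, adjusted p = 0.114).

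Metabolic and autophagy targets were higher in 12 of 23 tested cases, with a median of 1.17, and the 11 uncalled ones lay between -0.52 and 1.73. Dcxr, a carbonyl reductase that acts on xylulose, measured 969, 1297 and 826 CPM in treated wild type and 30.0 and 18.0 in treated null (log2 5.42, SE 0.31, adjusted p = 3.36e-06). Its untreated levels were 76.2 ± 17.6 CPM (SD, n = 3) and 21.0 ± 4.79 (SD, n = 2), a smaller gap of 1.83, and the gaps differed by 3.59 (adjusted p = 0.0037). Ephx1, microsomal epoxide hydrolase, showed a different pattern: 146, 83.4 and 512 CPM against 6.48 and 6.38 gave a treated difference of 4.74, but the untreated one was 4.10 and the gaps were not called different (adjusted p = 0.728). Cpt1c (3.15), Fdxr (2.26, the reductase that feeds mitochondrial P450 enzymes), Lpin1 (2.36) and the thiamine transporter gene Slc19a2 (2.40) were also higher. Sesn2, which signals amino acid shortage to mTORC1, measured 25.6, 12.9 and 21.3 CPM against 1.90 and 4.25 (log2 2.55), whereas its relative Sesn1 stood at 1.87, 1.30 and 1.13 against 1.48 and 1.82 (-0.17, adjusted p = 0.846). Ddit4, another inhibitor of mTORC1, measured 40.8, 56.6 and 49.8 CPM against 3.71 and 3.65 (log2 3.56). Ulk1, the kinase that starts autophagy, measured 89.6, 76.2 and 70.7 against 22.3 and 24.6 (log2 1.72, adjusted p = 0.000701). Dram1 and Tsc2 passed narrowly (adjusted p = 0.048 and 0.0396) and lost their calls under 18 of 23 and 15 of 24 alternatives that tested them, including each removal of 1 library other than the wild-type ones numbered 1. Aldh4a1, a proline catabolic enzyme, changed direction between conditions: it was higher in treated wild type (5.98, 8.84 and 4.73 CPM against 1.59 and 1.67, log2 1.68) and lower in untreated wild type (0.61 against 2.79 CPM on average, log2 -1.60), and its treated call was lost without either treated null library.

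Of the secreted, adhesion and matrix targets, 6 of 13 tested were higher, with a median of 1.14. Gdf15, a stress-induced cytokine of the TGF-beta family, measured 35.5, 34.4 and 25.5 CPM in treated wild type against 0.72 and 1.73 in null (log2 4.28, SE 0.34, adjusted p = 3.04e-05). Icam1, the leukocyte adhesion molecule, measured 407, 709 and 605 against 26.2 and 16.5 (log2 4.72). Hyal1, a lysosomal hyaluronidase, measured 67.0, 119 and 74.0 against 11.3 and 7.26 (log2 3.14), and it had no called difference in untreated cells (-0.58, adjusted p = 0.201). None of these genes overlapped between the treated genotypes, nor did any of the 768 called genes with an average log2 CPM of at least 3. Pltp was higher by 2.02, and Tgfa (1.22) and Vcan (1.28) lost their calls without either treated null library. Tgfa also lost it without either untreated null library, and Vcan without wild-type replicate 1 or 3 or untreated null replicate 2. Thbs1, an angiogenesis inhibitor, did not differ beyond its spread, at 138, 142 and 151 CPM against 122 and 293 (-0.40, adjusted p = 0.439). Its estimate turned on 1 library, with 0.18 without treated null replicate 2 and, as a called difference, -1.08 without replicate 1.

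Promoter windows from RefSeq (build GRCm38.p6, 250 bases before to 50 after a start site) were available for 7777 of the tested genes and were searched on both strands for the p53 half-site, a 10-letter palindromic consensus. A half-site was present in 7 of the 39 called-higher target genes with a window (17.9%) and in 626 of all 7777 (8.05%). Within the target lists the called-higher genes did not stand out, since 11 of all 63 target genes with a window (17.5%) held one, and over all called-higher genes the share was 10.5%. A pair of half-sites at most 13 bases apart was found in only 5 windows (0.0643%), and the Cdkn1a window was 1 of them. The windows of Cdkn1a and Mdm2 are shown with the half-sites in capitals. Among called genes of the p53 lists whose window holds a half-site, these had the smallest p in the treated comparison. They were thus chosen for holding a half-site. Cdkn1a lies on the plus strand at chr17:29090729-29091028, a window at the more upstream of its 2 RefSeq start sites, and its half-sites begin 73 and 51 bases before that start. Mdm2 lies on the minus strand at chr10:117710709-117711008, with 1 half-site that begins 186 bases before the start.
Cdkn1a: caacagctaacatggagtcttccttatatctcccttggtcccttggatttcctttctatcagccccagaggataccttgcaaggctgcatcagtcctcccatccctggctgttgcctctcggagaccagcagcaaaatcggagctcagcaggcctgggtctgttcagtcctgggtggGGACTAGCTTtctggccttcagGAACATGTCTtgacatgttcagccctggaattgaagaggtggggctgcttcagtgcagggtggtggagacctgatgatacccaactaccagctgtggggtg
Mdm2: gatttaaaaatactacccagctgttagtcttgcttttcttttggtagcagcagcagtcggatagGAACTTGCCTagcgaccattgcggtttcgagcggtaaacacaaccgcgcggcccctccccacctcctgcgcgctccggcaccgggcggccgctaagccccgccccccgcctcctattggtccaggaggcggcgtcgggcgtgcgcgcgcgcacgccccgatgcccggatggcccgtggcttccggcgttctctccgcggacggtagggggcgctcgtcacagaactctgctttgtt
A match is a string of letters in these windows and not a measured binding site, and binding was not analysed here.

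Beyond the listed targets, the largest rises among well-expressed genes (average log2 CPM of at least 3, no overlap between groups) included genes of signalling and the cytoskeleton. Ak1, adenylate kinase, measured 387, 458 and 400 CPM in treated wild type against 16.8 and 13.9 in null (log2 4.71). Ptp4a3, a prenylated phosphatase, measured 191, 226 and 210 against 11.4 and 8.68 (log2 4.32). Psrc1, a spindle protein, measured 158, 170 and 168 against 7.81 and 8.02 (log2 4.30), and the matrix metalloprotease gene Mmp15 63.2, 71.0 and 59.7 against 3.83 and 1.98 (log2 4.31). Each of the 4 had a tight wild-type group and a smaller gap in untreated cells, of 2.63, 1.21, 1.52 and 1.49. Efs (4.06), Crip2 (3.80) and Fam83h (3.62) followed, and Serpina3n (4.06) was the least even, at 11.2, 46.4 and 113 CPM against 1.93 and 1.82, and lost its call without wild-type replicate 2 or 3, either treated null library or untreated null replicate 2. Some of the largest differences of all lay under that expression minimum. Sytl1, a Rab27 effector of vesicle transport, measured 66.5, 86.8 and 78.6 CPM against 0.834 and 0.283 (log2 6.24, adjusted p = 2.63e-06) with no called difference in untreated cells (0.57). Brunol5, of the CELF family of RNA-binding proteins, measured 64.6, 65.6 and 61.1 against 0.682 and 0.566 (log2 5.84). Both were chosen for their size and not by the rule for named genes.

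**Figure D2:**
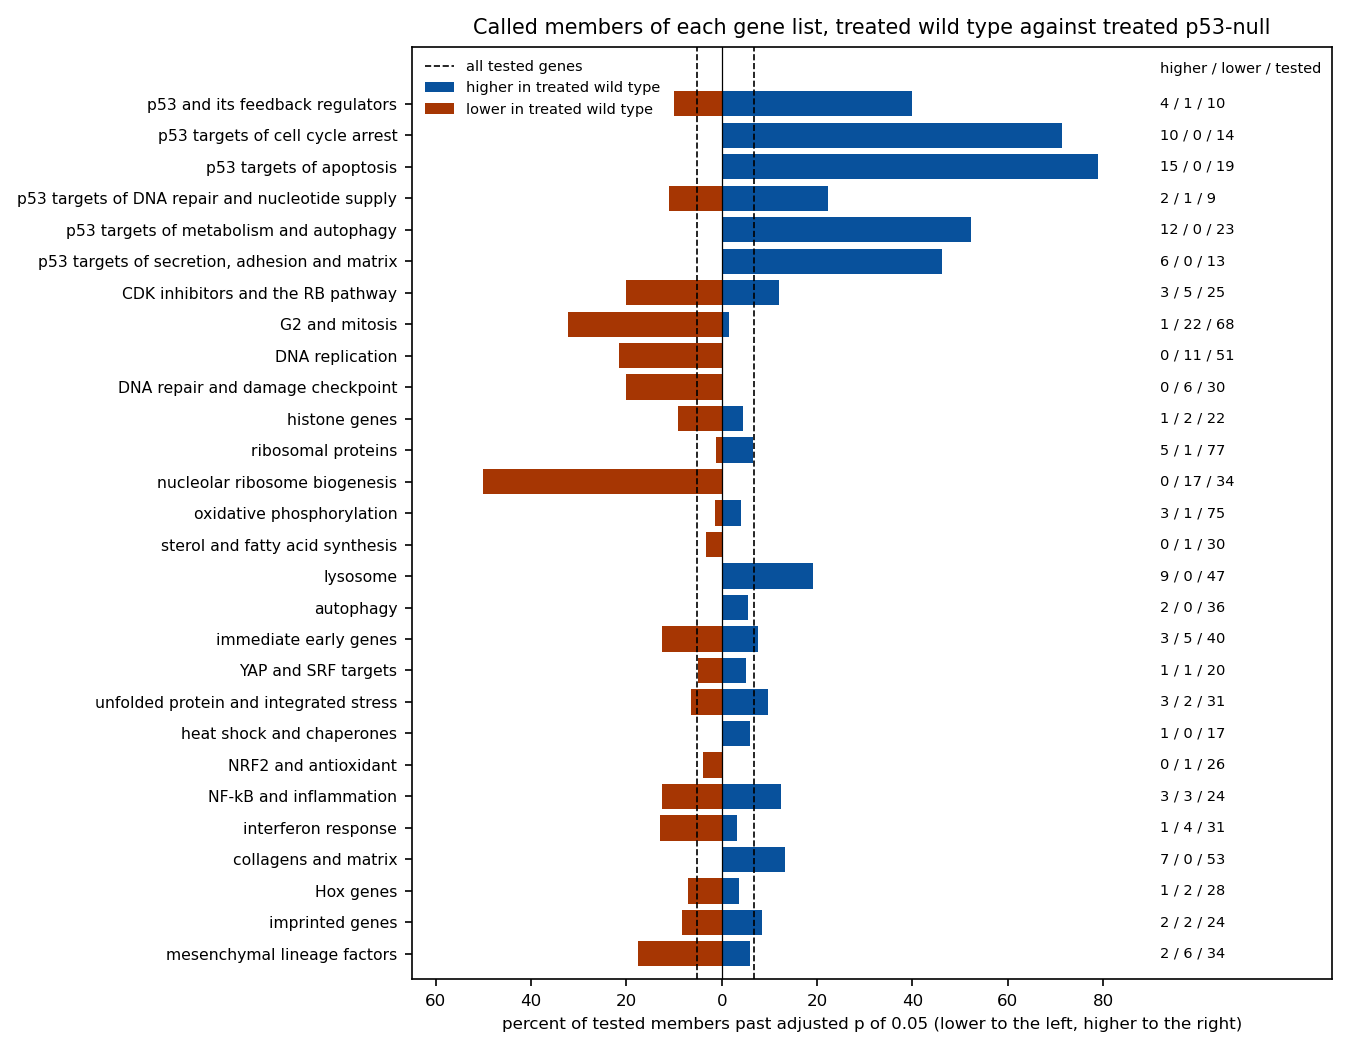
Percent of the tested genes of each list that were called higher (right) or lower (left) in treated wild type than in treated null. Dashed lines mark the shares over all tested genes, 6.83% higher and 5.24% lower. The p53 target lists exceed the higher line, and the nucleolar and G2 and mitosis lists exceed the lower one.

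Regulators of the cell cycle engine were divided. Among 25 tested genes of the CDK inhibitor and RB group 3 were higher and 5 lower, with a median of -0.62. Besides Cdkn1a the higher genes were the pocket protein genes Rbl2 (35.0, 21.8 and 30.9 CPM against 8.91 and 10.3, log2 1.53) and Rb1 (2.43, 4.37 and 2.67 against 0.796 and 0.944, log2 1.38). Cdkn1b, which encodes the inhibitor p27, was lower in wild type (2.52, 1.58 and 2.16 CPM against 8.11 and 17.8, log2 -2.30), and it was as much lower in untreated cells (-2.46). The activator gene E2f2 was lower (-1.29, adjusted p = 0.0238) with an untreated estimate of the other sign that did not pass (0.61). The calls of Rbl2, Rb1 and E2f2 were lost without either treated null library, that of Rb1 also without treated wild-type replicate 2 or 3 or either untreated null library, and that of Cdkn1b without treated null replicate 2.

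Genes of G2 and mitosis were mostly lower in treated wild type. Of 68 tested, 22 were called lower and 1 higher, 58 had a negative difference, and the median was -0.88. Top2a, the topoisomerase that doxorubicin traps, measured 90.7, 92.4 and 88.4 CPM in treated wild type and 304 and 425 in treated null (log2 -1.98, SE 0.28, adjusted p = 0.00138). Untreated levels were 183 ± 45.9 (SD, n = 3) and 292 ± 99.8 (SD, n = 2), a difference of -0.67 that did not pass (adjusted p = 0.0919). Espl1, the separase that cuts cohesin at anaphase, measured 7.10, 6.97 and 6.69 CPM against 17.4 and 20.7 (log2 -1.39, adjusted p = 0.00573), while untreated levels overlapped at 20.4 ± 3.02 (SD, n = 3) and 18.3 ± 3.72 (SD, n = 2). The treated wild-type values of both genes were tight and lay below every treated null value, a lack of overlap shared by all 768 called genes with an average log2 CPM of at least 3. The kinesin gene Kif11 (-2.05), Cdc2a, which encodes the mitotic kinase Cdk1 (-1.40), the chromosomal passenger gene Cdca8 (-1.53) and Aurkb (-1.24) were also lower. Psrc1 alone was higher. In untreated cells 26 of the 68 were already lower and 2 higher, with a median of -0.66, where 20.4% of all tested genes were lower and 12.8% higher. The summed CPM of the list was 1440, 1880 and 2480 in treated wild type and 2570 and 2820 in treated null, with wild-type replicate 3 closest to the null libraries. The count of lower calls rested on treated null replicate 2 to a large degree: it was 2 of 68 without that library, 16 without replicate 1, and 11 when the 5 treated libraries were fitted alone. It was 14 without treated wild-type replicate 1. Espl1, Kif11, Cdca8, Cdc2a and Aurkb lost their calls without treated null replicate 2, Cdca8 and Aurkb also without replicate 1, Cdc2a and Aurkb without treated wild-type replicate 1, and Aurkb without treated wild-type replicate 2 or untreated null replicate 1. Top2a kept its call under all 24 alternatives.

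The windows of Top2a and Espl1 are shown because they hold elements that are known from the promoters of mitotic genes, the CHR (TTTGAA) and the CCAAT box (CCAAT), each read on both strands and marked in capitals. The CHR was present in 36 of the 52 G2 and mitosis genes with a window (69.2%) and in 13.6% of all 7777 tested genes with one, and the CCAAT box in 80.8% and 42.8%. Both together were found in 63.5% and 5.55%. Within the list the called-lower genes did not carry the CHR more often, with 12 of 17 (70.6%). Top2a, on the minus strand at chr11:99024140-99024439, holds 2 CHR strings, which begin 179 and 23 bases before the start, and 6 CCAAT boxes. Espl1, on the plus strand at chr15:102296043-102296342, holds 1 of each, with the CHR beginning 27 bases before the start.
Top2a: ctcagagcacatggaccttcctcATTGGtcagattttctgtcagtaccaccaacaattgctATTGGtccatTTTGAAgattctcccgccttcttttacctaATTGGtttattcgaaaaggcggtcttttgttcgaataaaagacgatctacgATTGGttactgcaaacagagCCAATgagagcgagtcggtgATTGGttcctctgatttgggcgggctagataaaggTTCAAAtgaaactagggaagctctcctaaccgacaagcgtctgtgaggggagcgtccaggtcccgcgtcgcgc
Espl1: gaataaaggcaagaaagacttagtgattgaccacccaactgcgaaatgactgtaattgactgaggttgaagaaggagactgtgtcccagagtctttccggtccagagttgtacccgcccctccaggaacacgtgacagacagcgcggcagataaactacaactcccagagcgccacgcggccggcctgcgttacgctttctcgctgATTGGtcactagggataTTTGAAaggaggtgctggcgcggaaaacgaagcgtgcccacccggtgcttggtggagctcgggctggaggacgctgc

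DNA replication genes followed, with 11 of 51 tested lower and a median of -0.71. In untreated cells 10 were lower and 2 higher, with a median of -0.36, where 20.4% of all tested genes were lower and 12.8% higher. The genes lower in treated wild type included Gmnn (geminin, the inhibitor of origin licensing), at 2.24, 3.16 and 5.76 CPM against 13.8 and 15.2 (log2 -1.91), and the helicase subunit gene Mcm6, at 12.9, 9.21 and 6.07 against 25.7 and 25.3 (log2 -1.45). Rfc3, a subunit of the clamp loader, measured 18.1, 15.2 and 13.4 against 35.0 and 50.1 (log2 -1.41). Tk1, thymidine kinase, was lower in treated wild type (136, 113 and 192 CPM against 262 and 269, log2 -0.89) and higher in untreated wild type (log2 0.83), and the change between the 2 was called (-1.72, adjusted p = 0.0359). In the repair and checkpoint list 6 of 30 tested were lower in treated wild type, with a median of -0.68. In untreated cells 7 were lower and 1 higher, with a median of -0.71. Among the 6 were Nbn of the break-sensing MRN complex (8.69, 6.79 and 4.53 against 20.6 and 32.7, log2 -1.93), Fanca (-1.40), the Chk1 adaptor gene Clspn (-2.06) and H2afx (-1.03). Nbn (-1.72) and Clspn (-2.09) were also called lower in untreated cells, Fanca (-0.13) and H2afx (-0.34) were not. Each of these 4 lost its treated call without treated null replicate 2. Clspn also lost it without treated wild-type replicate 3, untreated wild-type replicate 2 or untreated null replicate 1, and H2afx without treated wild-type replicate 1. The calls of Gmnn, Mcm6, Rfc3 and Tk1 were each lost without either treated null library, those of Mcm6 and Rfc3 also without treated wild-type replicate 3, and those of Gmnn and Tk1 also without treated wild-type replicate 1 or 2, untreated wild-type replicate 3 or untreated null replicate 1. Tk1 further lost its call without untreated wild-type replicate 2 or untreated null replicate 2. The count of 11 dropped to between 3 and 7 without untreated wild-type replicate 2, treated wild-type replicate 1 or 3, either untreated null library or treated null replicate 1. Without treated null replicate 2 none of the 51 replication genes passed in limma, with 15 lower at an unadjusted p under 0.05, whereas with all libraries limma-voom called 15 lower.

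Genes of nucleolar ribosome assembly were lower in 17 of 34 tested cases, against 5.24% lower among all tested genes. Of the 34, 28 were negative, and the median was -0.81, while in untreated cells 8 were lower and 4 higher with a median of 0.02. These untreated counts lay near the untreated background of 20.4% lower and 12.8% higher. Nolc1, a chaperone of small nucleolar ribonucleoproteins, measured 94.5, 71.3 and 66.5 CPM in treated wild type against 188 and 220 in null (log2 -1.40, SE 0.22, adjusted p = 0.00243), and in untreated cells 199 ± 14.2 (SD, n = 3) against 250 ± 46.4 (SD, n = 2), which did not pass (-0.31, adjusted p = 0.283). Wdr43 measured 107, 110 and 82.9 against 208 and 229 (log2 -1.13), and the helicase gene Ddx21 73.1, 81.1 and 53.6 against 187 and 265 (log2 -1.70). Nop58, a core protein of box C/D particles, measured 152, 248 and 142 against 510 and 466 (log2 -1.48), and Nop56 of the same particles 544, 203 and 332 against 1086 and 903 (log2 -1.58). Ddx21 (-1.43) and Nop58 (-1.10) were already called lower in untreated wild type, whereas Wdr43 (-0.24) was not. For Ddx21 and Nop58 the gaps were not called different in limma (adjusted p = 0.741 and 0.584). Gnl3, nucleostemin, was lower (log2 -1.47) with an untreated estimate of 0.52 that did not pass. All these genes had every treated wild-type value below every treated null value, a lack of overlap shared by all 768 called genes with an average log2 CPM of at least 3. The summed CPM of the list was 4040, 3960 and 3600 in treated wild type, 6110 and 6320 in treated null, 5790 to 6210 in untreated wild type and 6130 and 6850 in untreated null. The number called was 3 without treated null replicate 2, 8 without replicate 1 and 10 without treated wild-type replicate 3, although the summed levels of the 2 null libraries were alike. Ddx21, Nop56 and Gnl3 lost their calls without treated null replicate 2, Nop56 and Gnl3 also without replicate 1, and Gnl3 without treated wild-type replicate 2 or 3.

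Of 77 tested cytosolic ribosomal protein genes, 5 were higher and 1 lower, close to or below the background shares. Their estimates leaned to wild type, 64 of the 77 being positive with a median of 0.44, and 16 were higher at an unadjusted p under 0.05 against 1 lower. The CPM summed over them came to 328000, 259000 and 284000 in treated wild type and to 233000 and 192000 in treated null. In untreated cells 27 were higher and 3 lower with a median of 0.80, where 12.8% of all tested genes were higher and 20.4% lower. Rps13 measured 176, 259 and 260 CPM against 102 and 101 (log2 1.17), and Rpl13a 5595, 5489 and 4865 against 3726 and 3070 (log2 0.65). Rps4x was uneven, at 1039, 214 and 3500 against 121 and 68.0 (log2 3.33). Rpl23a was lower in wild type in both conditions, at 349, 343 and 386 CPM against 889 and 828 when treated (log2 -1.26) and 171 ± 29.2 (SD, n = 3) against 1670 ± 164 (SD, n = 2) when untreated (log2 -3.30). The call of Rps13 was lost without either treated null library. That of Rpl13a was lost with each removal of 1 library other than untreated wild-type replicate 1, and that of Rps4x with each other than untreated wild-type replicate 3 and treated wild-type replicate 2. These genes have many processed copies in the genome, so the assignment of reads to them is uncertain.

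**Figure D3:**
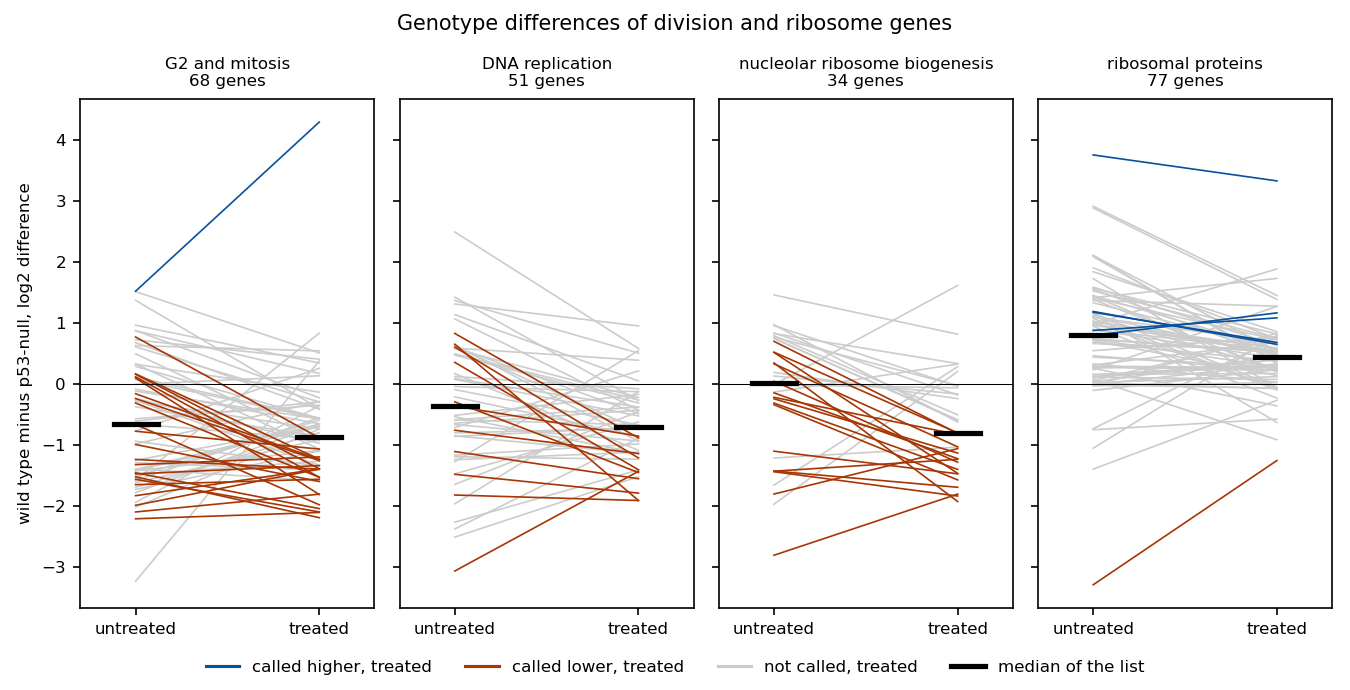
Wild type minus p53-null log2 difference of each tested gene of 4 lists, untreated (left end of a line) and treated (right end), with black bars at the medians. The nucleolar genes moved from a median of 0.02 to -0.81 and the replication genes from -0.36 to -0.71, and the median was below 0 in both conditions for G2 and mitosis genes and above 0 for ribosomal protein genes.

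Lysosomal genes were higher in 9 of 47 tested cases and lower in none (17 and none at an unadjusted p under 0.05 in limma, 11 and none in limma-voom), with a median of 0.46. Ctsd, cathepsin D, measured 2456, 3686 and 2521 CPM in treated wild type against 1213 and 856 in null (log2 1.48, adjusted p = 0.00325). Fuca1, a fucosidase, measured 627, 642 and 489 against 217 and 152 (log2 1.68), and Ctsf, cathepsin F, 28.1, 30.9 and 20.2 against 6.06 and 4.97 (log2 2.14). The groups did not overlap for any of the 3, nor for any of the 768 called genes with an average log2 CPM of at least 3. In untreated cells 12 were higher and 7 lower, where 12.8% of all tested genes were higher and 20.4% lower. The number called was 4 without treated null replicate 2. Of 36 autophagy genes tested 2 were called higher, Ulk1 and Dram1, and the median was 0.26.

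Collagen and matrix genes were higher in 7 of 53 tested cases, with a median of 0.27. Timp1, an inhibitor of metalloproteases, measured 10120, 10780 and 7952 CPM against 4405 and 3694 (log2 1.24), and Col18a1, the endostatin precursor, 256, 194 and 195 against 65.0 and 62.1 (log2 1.74). Both were higher in untreated wild type too, by 1.79 and 1.49. The call of Timp1 was lost without treated null replicate 2. Lineage factors of mesenchyme were lower in 6 and higher in 2 of 34 tested cases. Scx, scleraxis of tendon progenitors, measured 204, 118 and 226 CPM against 15.4 and 17.7 (log2 3.37, SE 0.34, adjusted p = 0.000155). Its untreated levels were 12.5 and 13.9 CPM on average, with no called difference, and the gap was larger with doxorubicin by 3.57 (adjusted p = 0.00593). Osr1 was lower, at 22.0, 24.3 and 24.4 against 56.2 and 85.3 (log2 -1.54).

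Growth factor and stress programmes gave small counts. In the immediate early list 5 of 40 tested were lower and 3 higher. Myc was lower (1.31, 3.72 and 2.06 CPM against 7.77 and 8.05, log2 -1.64), as it was in untreated wild type (-2.84), and its treated call was lost without either treated null library or treated wild-type replicate 1. Spry2, an inhibitor of receptor tyrosine kinase signalling, was lower in wild type (-4.34). Fosl1 was higher, at 176, 265 and 203 against 63.5 and 59.5 (log2 1.77). Among YAP and SRF targets, Ankrd1 was lower (75.3, 79.3 and 93.7 against 300 and 348, log2 -1.97) and Actg2 higher (1.14), 2 of 20 tested. Interferon response genes were lower in 4 of 31 tested cases and higher in 1, with a median of -0.66. In untreated cells 13 were lower with a median of -1.11, where 20.4% of all tested genes were lower. The 4 treated calls came to at most 1 without treated wild-type replicate 1, untreated null replicate 1 or either treated null library. Sterol synthesis (1 lower of 30, Insig1 at -2.26), oxidative phosphorylation (3 higher and 1 lower of 75), heat shock (1 higher of 17), antioxidant genes (1 lower of 26) and NF-kB genes (3 and 3 of 24) had shares that did not stand far from the background. Cox6b2, a cytochrome oxidase subunit gene best known from testis, was an exception within its list, at 227, 190 and 146 CPM against 22.6 and 13.9 (log2 3.34, adjusted p = 0.000506).

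The largest falls were of another kind. The 15 largest among well-expressed genes ran from -9.23 to -4.59, and they had almost the same size in untreated cells. Lyrm4, an adaptor of mitochondrial iron-sulfur cluster assembly, measured 1.12, 0.744 and 1.75 CPM in treated wild type and 987 and 996 in treated null (log2 -9.23, SE 0.33, adjusted p = 2.2e-07), and in untreated cells 1.88 ± 0.581 (SD, n = 3) against 974 ± 304 (SD, n = 2). Tusc5, a regulator of glucose transporter traffic in fat cells, measured 2.52, 2.23 and 2.16 against 1680 and 668 (log2 -8.56). Ifnar1, a chain of the interferon alpha and beta receptor, measured 12.3, 8.56 and 14.2 against 1135 and 1110 (log2 -6.55), and its treated and untreated gaps differed by only 0.04 (adjusted p = 0.952). Rdh13, a retinol dehydrogenase, measured 7.10, 5.30 and 8.75 against 632 and 477 (log2 -6.21). Sox8, a SOX family transcription factor, measured 3.27, 2.42 and 3.40 against 223 and 172 (log2 -5.81). The translation inhibitor gene Pdcd4 (-5.10), Smad7, an inhibitor of TGF-beta signalling (-4.97), and Atxn1 (-4.93) belonged to the same set. Each was low in all 6 wild-type libraries and high in all 4 null libraries, whether or not the drug had been given. For these 15 genes the adjusted p of a change of the gap with doxorubicin was 0.369 or higher in limma.

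**Figure D4:**
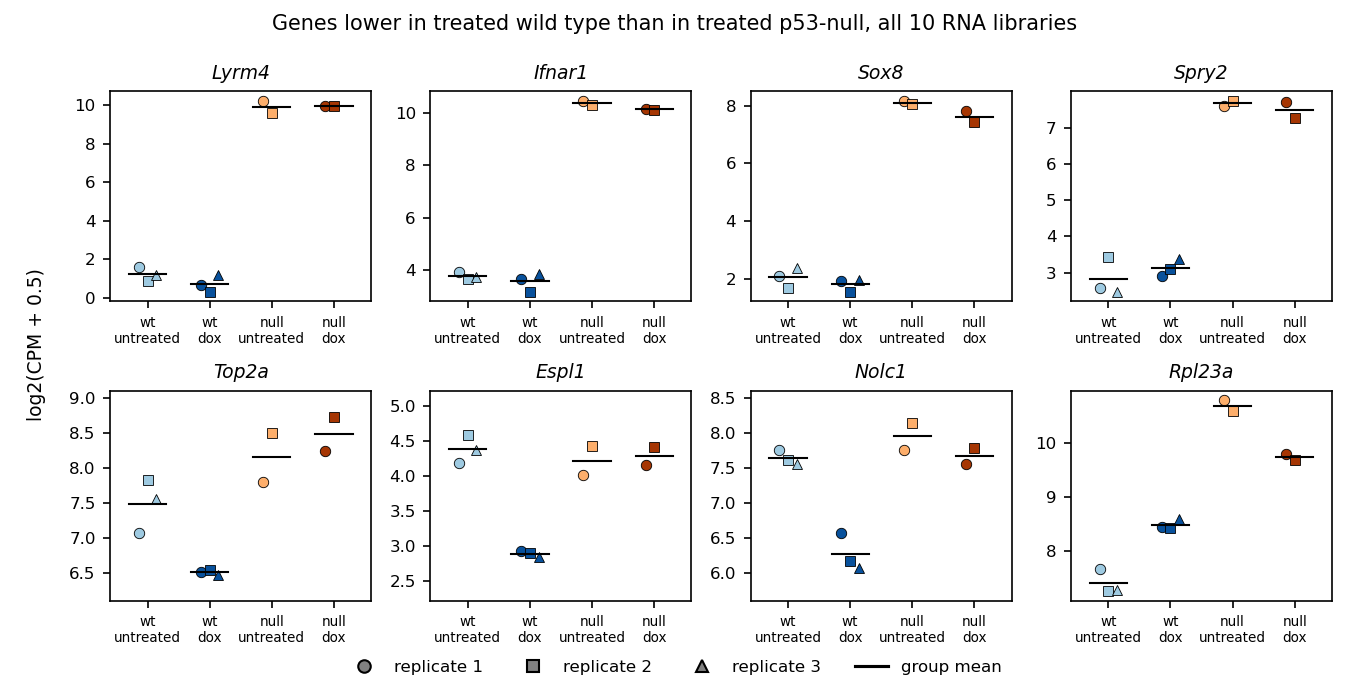
Level of 8 genes lower in treated wild type, in each of the 10 RNA libraries on a log2(CPM + 0.5) axis, with bars at group means. Lyrm4, Ifnar1, Sox8 and Spry2 differ alike between genotypes in untreated and treated cells, while Top2a, Espl1 and Nolc1 are lowest in treated wild type and Rpl23a differs most in untreated cells.

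The 2 directions thus differed in how much of the treated difference was already present without the drug. Of the 763 genes higher in treated wild type, 268 (35.1%) were also called higher in untreated wild type, 8 were called lower there, and 487 were not called. Among all tested genes, 12.8% were called higher in untreated wild type. These 268 were 18.8% of the 1426 genes called higher without drug. Of the 586 lower genes, 385 (65.7%) were also called lower in untreated cells, which was 16.9% of the 2279 called there. Among all tested genes, 20.4% were called lower in untreated wild type, so the untreated calls were themselves uneven between the directions. They came to 3705 with all libraries and to 422 without untreated null replicate 1. The median difference of the 763 was 1.58 treated and 0.54 untreated, and that of the 586 was -1.52 and -1.40. All 54 genes that were at least 8-fold lower were also called lower in untreated cells, with a median of -4.12 there, whereas 29 of the 87 at least 8-fold higher genes were called higher in untreated cells, with a median of 0.62. Over all 11177 genes the treated and untreated differences, which share no library but whose same-numbered libraries deviate together, correlated at 0.59 (Pearson) and 0.55 (Spearman), a description across genes that are not independent.

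**Figure D5:**
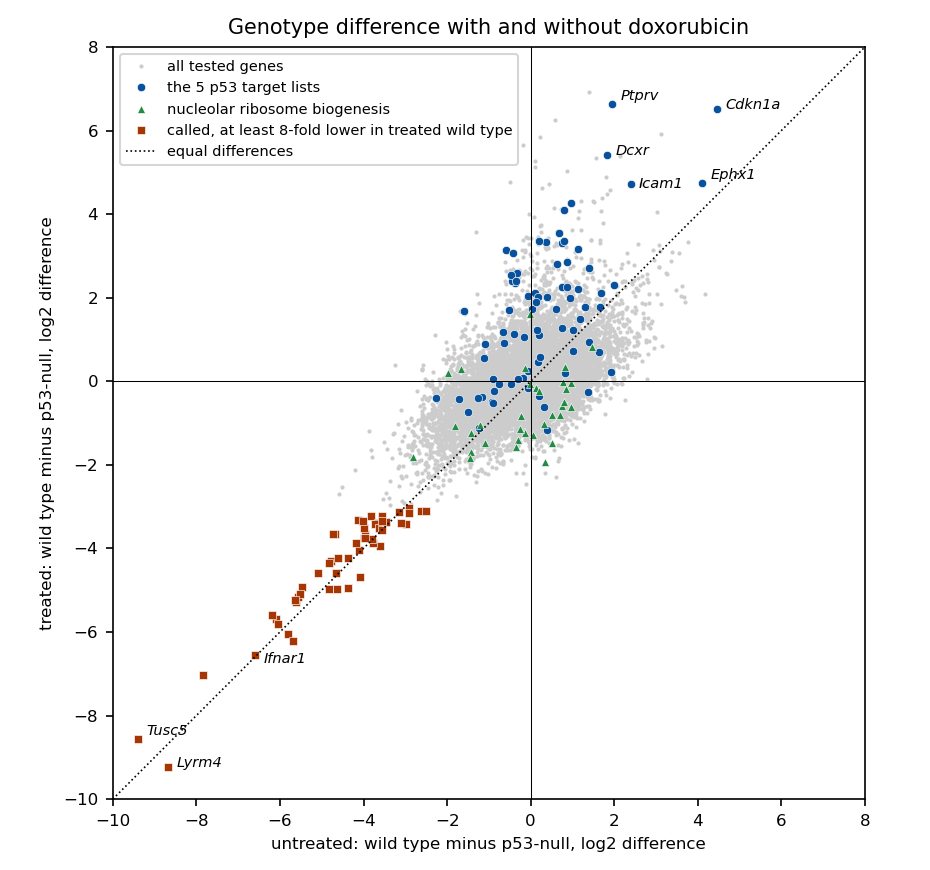
Log2 difference between wild type and p53-null in treated cells (vertical axis) against that in untreated cells (horizontal axis), 1 point per tested gene. The p53 targets, such as Ptprv, Cdkn1a and Dcxr, lie above the diagonal, most nucleolar genes below it, and the genes at least 8-fold lower, such as Lyrm4, Tusc5 and Ifnar1, close to it.

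For 19 genes the called direction turned between conditions, and those given here were chosen for that turn. Ass1, argininosuccinate synthase of arginine supply, measured 124, 119 and 115 CPM in treated wild type against 38.8 and 26.7 in treated null (log2 1.87, adjusted p = 0.00104), and in untreated cells 19.2 ± 3.88 (SD, n = 3) against 46.2 ± 9.77 (SD, n = 2) (log2 -1.24, adjusted p = 0.00835). Fam43b measured 10.2, 9.95 and 6.28 against 0.493 and 0.0943 (log2 3.57), with an untreated difference of -1.30. Slc29a2, an equilibrative nucleoside transporter, turned the other way, at 2.80, 2.70 and 3.19 against 7.96 and 8.78 treated (log2 -1.39) and 15.2 ± 1.82 (SD, n = 3) against 7.08 ± 1.05 (SD, n = 2) untreated (log2 1.05). The sororin gene Cdca5 (-0.88 and 0.77) and Tk1 turned in that same direction. The change of the gap was itself called for each of these 5 genes. The treated call of Slc29a2 was lost without treated null replicate 2, and that of Cdca5 without treated null replicate 1 or treated wild-type replicate 1.

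Some genes had no reads at all in 1 of the treated genotypes. No read was counted in either treated null library for 400 genes that had a read in treated wild type, and 10 of these had at least 20 reads there. Klhdc7a had 94, 48 and 89 reads in treated wild type, at least 144-fold higher than a floor of 3 reads over the null group allows, Ckmt1, a mitochondrial creatine kinase gene, had 69, 14 and 117 (at least 124-fold higher), and Hs3st6, a heparan sulfate sulfotransferase gene, 50, 40 and 46 (at least 84.6-fold higher). The limma call of Ckmt1 was lost without treated null replicate 2. Untreated libraries held at most 1 read of each of the 3. In the other direction 2436 genes had reads in treated null and none in treated wild type, 26 of them with at least 20 reads. The null libraries were the deeper ones. Tsga10, known from sperm development, had 121 and 147 reads there, at least 47.9-fold lower in wild type, and it had no read in untreated wild type either.

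Markers of the labelled cell type were detected at unequal levels. All 12 fibroblast markers were tested, with summed levels of 5610 to 8680 CPM in treated wild type and 5380 and 6360 in treated null. None was called in limma (1 lower at an unadjusted p under 0.05, none in limma-voom). Col1a1, Thy1 and Sparc were abundant. Pdgfra was near the floor, at 0.934, 0.837 and 0.720 CPM in treated wild type against 1.55 and 2.11, as was Lum at 1.40, 1.49 and 1.24 against 0.872 and 1.26. Of 19 macrophage and blood markers 7 were under 1 CPM in all treated libraries, the sums were 47.3, 232 and 246 CPM in wild type and 129 and 87.7 in null, and again none was called (1 higher at an unadjusted p under 0.05, none in limma-voom). Macrophage transcripts were present: C1qb measured 12.1, 67.0 and 75.4 CPM in treated wild type against 46.8 and 25.2, above Pdgfra and Lum in every treated library. Cartilage and bone markers had sums of 360, 82.6 and 89.5 against 438 and 793, with 1 of 6 tested called, the matrix protein gene Comp (log2 1.64). Comp went against its list, since the other 5 were negative and the median was -1.17. Skeletal muscle markers summed to 116, 326 and 171 against 91.5 and 65.1, and 1 of 8 was called, the myogenic factor gene Myf5 (-1.84). Myf5 too went against its list, in which 6 of the 8 were positive, with a median of 0.99. The sums of endothelial (27.5 to 59.6), epithelial (100 to 223) and neural markers (210 to 261) overlapped between the genotypes. Nes (nestin) made up most of the neural sum, at 166 to 235 CPM, and 2 of the 6 tested neural markers were lower in wild type, Stmn2 (11.0, 4.28 and 5.76 CPM against 26.6 and 50.1, log2 -2.40, adjusted p = 0.00701) and the scarce Sox2 (-1.28). Of 3 tested endothelial markers the receptor gene Kdr was lower (-1.71, adjusted p = 0.0459), and neither of the 2 epithelial ones was called. The calls of Stmn2 and Sox2 were lost without treated null replicate 2, those of Myf5 and Comp without either treated null library, and that of Kdr under 15 of the 23 alternatives that tested it, among them the removal of untreated wild-type replicate 2, treated wild-type replicate 2 or 3 or any 1 null library. The part of such cells in the differences above was not tested.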

How the data were processed

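Poly(A) RNA of fibroblasts was sequenced as 10 libraries at 3' ends, per the labels' protocols. The authors deposited, per library, 1 log2-scale value for each of 20207 gene symbols; the submitters' processing notes name DESeq and mm9 without versions, and they name no aligner or counter. The deposited log2 values lie on 1 common curve of whole reads, between -0.0425 and 24.43. Above a starting run of 250 reads, 99.93% of 22112 distinct values fell within 0.01 of a whole read (15 did not, all at 146281 reads or more). The recovered reads stood in for the deposited values in the test, which the design had foreseen. They were divided by library size, scaled by trimmed means of M values (30% and 5% trimmed) to CPM, filtered at 1 CPM in at least 2 libraries, and tested as log2(CPM + 0.5) with limma 3.58.1 in R 4.3.3 (trend option, 1 mean per group over all 10 libraries, so that the groups share 1 estimate of the spread, two-sided, Benjamini-Hochberg adjustment, threshold 0.05). Fold changes of low genes are understated by the added 0.5.

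Contrasts were treated wild type minus treated null, the same untreated, and the difference of both. Replicate numbers paired untreated with treated libraries of a genotype in the data (correlated deviations, as reported), though the labels state no pairing. Lists are described by counts and medians beside all tested genes. Named genes were a p53 panel, the 15 largest changes each way, up to 4 genes of smallest p per list, all p53 list genes, and up to 6 genes without reads in 1 genotype; 19 of the 136 genes in the text lie outside that rule, their values having been known when they were picked (Ass1, Aurkb, Brunol5, Cdc2a, Cdca5, Cdca8, Fam43b, Gmnn, Gnl3, Kif11, Mcm6, Mki67, Myc, Nes, Nop56, Rb1, Slc29a2, Sytl1 and Tk1). The compared genes and lists were chosen with earlier results of these data known. The fit was tested on simulated data. Tables were joined in Python 3.11.15.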

Additional observations from a re-analysis of the deposited data

Results flagged for a closer look

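For the following genes the wild type minus null difference itself changed between untreated and treated cells (the difference of both log2 differences, limma, Benjamini-Hochberg adjusted p between 0.000847 for Sytl1 and 0.0447 for Efs). This contrast shares libraries with both others, and it called no gene once both null libraries numbered 2 were left out, as given under the dependence on processing. The gap was larger with doxorubicin for the feedback genes Ccng1 (3.30), Mdm2 (2.67) and Trp53inp1 (2.57) and for the arrest genes Ptprv (4.68), Zfp365 (3.49), Btg2 (2.56) and Cdkn1a (2.05). Among apoptosis genes it was larger for Bbc3 (2.96), Ei24 (2.92), Pmaip1 (2.85), Fas (2.12), Trp53i11 (2.01) and Perp (2.00). The metabolic targets Dcxr (3.59), Aldh4a1 (3.28), Sesn2 (3.01), Ddit4 (2.88), Slc19a2 (2.74), Lpin1 (2.73) and Cpt1c (2.02) and the secreted or adhesion targets Hyal1 (3.72), Gdf15 (3.32) and Icam1 (2.32) behaved alike in sign. Outside the target lists the values were 5.67 for Sytl1, 5.61 for Brunol5, 4.87 for Fam43b, 3.86 for Klhdc7a, 3.57 for Scx, 3.31 for Hs3st6, 3.14 for Cox6b2, 3.12 for both Ass1 and Ptp4a3, 2.82 for Mmp15, 2.78 for Psrc1, 2.64 for Fam83h, 2.39 for Efs, 2.08 for Ak1 and 2.07 for Crip2. For Rpl23a the value of 2.04 marks a deficit in wild type that was smaller with the drug. It was negative for Cdca5 (-1.65), Tk1 (-1.72) and Slc29a2 (-2.43), which were higher in untreated and lower in treated wild type.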

How the results depend on the processing

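The counts of called genes depended most on which p53-null libraries were kept. Of 24 alternatives for the treated comparison, fitting its 5 libraries alone gave 676 called genes instead of 1349 (669 of them shared), and leaving out both null libraries numbered 2, an alternative chosen after seeing the data, gave 304. Leaving out each library in turn gave 467 to 1493 for the treated, 422 to 4226 for the untreated and 38 to 320 for the difference contrast. The lowest counts came without treated null replicate 2 (467) and without untreated null replicate 1 (422 and 38). The treated count was 850 without treated null replicate 1. The untreated count was 2246, 1750 and 492 without untreated wild-type replicate 2 or 3 or untreated null replicate 2. The difference count was 99, 101 and 159 without untreated wild-type replicate 2 or 3 or treated wild-type replicate 1, and 51, 70 and 86 without untreated null replicate 2, treated null replicate 1 or treated null replicate 2. Without both null libraries numbered 2 the untreated count was 216 instead of 3705, and the difference contrast called 0 genes in limma (1434 at an unadjusted p under 0.05) instead of 261. Upper quartile scaling gave 120 for the difference. With library size alone, 13.4% of untreated calls and 91.0% of difference calls were higher, against 38.5% and 80.8%. For the difference, upper quartile scaling gave 95.0% and median-of-ratios scaling 69.4%. Replicate numbers did not pair the treated genotypes: deviations of the libraries numbered 1 correlated at -0.093 and of those numbered 2 at 0.037. With the replicate block over all groups the treated contrast called 1432 genes (1219 shared) and the difference 480. With the replicate block within each genotype, added after seeing the data, the difference called 1076. That block pairs the null libraries numbered 2, which did not match in Xist and Ddx3y. Of the 122 called genes in the text, 59 kept their call under every alternative that tested them. Of 14 uncalled ones, these changed sign, with the range over the removal of 1 library: Mki67 (-1.15 to 1.43; -0.72 with the block), Ddx3y (-0.74 to 1.61; -0.74 without both null libraries numbered 2), Nes (-0.086 to 0.371; -0.107 with library size alone, -0.09 without both null libraries numbered 2), Thbs1 (-1.08 to 0.18; 0.18 without both) and Trp53 (-0.54 to 0.029; 0.025 without both). The causes were not tested. Null libraries held more reads, so low genes are measured less well in wild type.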
